A study of Rattus norvegicus with 2 samples.

Results

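The cytosolic ribosomal protein genes encode the protein subunits of the ribosome that translates mRNA in the cytoplasm. They were chosen by gene name on a rat array: names of the form Rpl or Rps with a number and, where present, a letter, together with Rpsa, Rplp1 and Rplp2. The S6 kinases, whose names begin with Rps6k, were left out. The rule found 75 genes, measured by 112 probes, among 35561 gene names and 41012 gene probes. Rplp0, Rpl22l1 and Rps27l were looked for and are not on the array under these names.

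HIP rats carry a transgene for human IAPP, the islet peptide that forms amyloid in type 2 diabetes, and were compared with nondiabetic wild-type rats. RNA extracts of 2 wild-type and 2 HIP samples were hybridised to 2 arrays, with wild type 1 and HIP 1 on array 1 and wild type 2 and HIP 2 on array 2. Cy3 labelled wild type and Cy5 labelled HIP on both arrays, so an effect of the dye and one of the genotype cannot be told apart. The labels used here name no tissue, age, strain background or transgene promoter, and do not say that the extracts came from separate animals, so the spread between arrays may be technical. Both arrays share 1 slide and 1 scan day, and the cDNA was amplified by PCR before labelling.

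Each ribosome has a small subunit, which decodes mRNA with the Rps proteins, and a large subunit, which joins amino acids with the Rpl proteins. The mRNAs of these genes are abundant in nearly all cells and typically begin with a run of pyrimidines, the terminal oligopyrimidine tract, through which mTOR signalling adjusts their translation. Beta cells devote much of their translation to proinsulin and acinar cells to digestive enzymes.

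The promoters of those ribosomal protein genes that lay at least 2-fold apart between the genotypes in 1 direction on both arrays are shown first, because those genes carry the comparison. RefSeq promoter sequences (build GRCr8) were matched by symbol for 60 of the 75 genes, and 59 had a single entry. Capitals mark CTTTCC or CTCTTT, pyrimidine runs searched on the sense strand between 10 bases before and 20 bases after the RefSeq start. Each window of 60 bases holds 40 bases before the start and 20 after it, and the first 3 genes had lower and the other 5 higher HIP signal.
Rps14: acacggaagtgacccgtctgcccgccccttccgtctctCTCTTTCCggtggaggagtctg
Rps19: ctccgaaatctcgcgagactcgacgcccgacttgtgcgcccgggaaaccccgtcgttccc
Rpl23: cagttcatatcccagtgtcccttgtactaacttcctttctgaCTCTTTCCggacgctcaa
Rps15a: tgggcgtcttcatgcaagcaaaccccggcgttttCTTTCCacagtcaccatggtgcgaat
Rpl11: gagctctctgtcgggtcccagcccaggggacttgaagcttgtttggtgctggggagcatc
Rpl39: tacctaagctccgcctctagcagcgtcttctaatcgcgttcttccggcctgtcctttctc
Rpl18: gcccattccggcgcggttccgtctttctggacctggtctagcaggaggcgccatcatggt
Rps9: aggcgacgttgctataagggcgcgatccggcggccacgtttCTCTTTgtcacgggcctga

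The windows of Rps14 (chr18:56498220-56498279), Rps19 (chr1:89608648-89608707) and Rpl18 (chr1:105325230-105325289) are on the plus strand. Those of Rpl23 (chr10:83272165-83272224), Rps15a (chr1:181860265-181860324), Rpl11 (chr5:153560783-153560842), Rpl39 (chrX:121195877-121195936) and Rps9 (chr1:74430418-74430477) are on the minus strand. A match is a stretch of letters and not a measured site. CTTTCC and CTCTTT can overlap, as they do in Rps14 and Rpl23. Of the 59 ribosomal protein genes, 26 (44.1%) held one of the runs at the start on the sense strand, against 701 of 33469 promoters in the whole table (2.09%). On the antisense strand the shares were 1.69% and 2.11%. CCGGAAG, the core bound by ETS factors, was searched on both strands of the 300 bases, from 250 before to 50 after the start, and was present in 32.2% of the genes against 8.75% of all promoters.

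The pyrimidine run did not divide the genes by direction. The 26 genes with it (40 probes) had a median log2 ratio of HIP over wild type of -0.46 on array 1 and 0.62 on array 2. The 33 genes without it (47 probes) had medians of -0.46 and 0.96. Among the printed windows it occurs in Rps14 and Rpl23, with lower HIP signal, and also in Rps15a and Rps9, with higher.

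Ribosomal protein mRNAs were among the brightest features in all 4 extracts. Their median signal stood at the 89.3th percentile of all gene probes in wild type 1, the 86.3th in HIP 1, the 87.3th in wild type 2 and the 89.97th in HIP 2. Of 111 probes tested, 56 were at or above the 75th percentile in every extract and 24 at or above the 90th, while 20 lay below the 50th in at least 1 extract. One further Rpl28 probe was not well above background in any extract and was not tested. None of the probes was saturated. Wild type 2 stood apart in brightness, with a median spot of all genes at 2.94 times its local background, against 5.10 to 5.26 times in the other 3 extracts, and 73.6% of spots well above background, against 83.5% to 85.04%. For the ribosomal protein spots the same median ratio to background was 24.95 in wild type 2 against 58.4 in HIP 2 on array 2, and 36.4 in wild type 1 against 39.1 in HIP 1 on array 1.

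The extracts were also checked for pancreatic markers, since the series concerns the islet. Ins2, an insulin gene of beta cells, lay between the 98.4th and 99.6th percentile of all gene probes, with intensities of 24810 and 19585 in wild type and 12071 and 10889 in HIP. Summed intensity over 14 islet endocrine markers was 40252 and 47639 in wild type against 25719 and 24526 in HIP, with 5 of the 14 higher and 3 lower on both arrays. Most of that sum came from Ins1 and Ins2, and the median log2 ratios over the 14 markers were 0.12 on array 1 and 0.10 on array 2. Over 15 acinar markers the summed intensity was 42338 and 39576 against 40676 and 38888, with 9 higher and 4 lower on both arrays. Leukocyte markers (11 genes) summed to 12702 and 13996 against 5412 and 17247. That sum followed 1 probe, Cd3d, with 8474 and 6912 in wild type against 883 and 13223 in HIP. Of the 11, 2 were higher and 3 lower on both arrays, and 6 differed in sign. Ductal markers (4 genes) summed to 6933 and 3824 against 2826 and 2986, with 2 higher and 2 lower on both arrays. In such bulk extracts fewer cells of a type and less RNA per cell cannot be told apart. The part of these marker differences in the ribosomal protein values was not tested.

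The brightest ribosomal protein probe was that of Rpl7a, a protein of the large subunit. Its normalized intensity was 34583 in wild type 1, 26906 in HIP 1, 21368 in wild type 2 and 42067 in HIP 2. The wild-type values lay on either side of HIP 1, and the mean log2 ratio of HIP over wild type was 0.31 ± 0.95 (SD, n = 2 arrays). Rpl35a, Rpl21, Rpl27, Rps9 and Rps2 gave the next brightest probes. One Rpl35a probe read 22133, 7288, 6334 and 19831 in the same order of extracts, so that wild type 1 and HIP 2 were both high.

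No ribosomal protein gene was called different between HIP and wild type after adjustment. In limma's test of the 2 log2 ratios against 0, with Benjamini-Hochberg adjustment over 33652 probes, none of the 111 ribosomal protein probes had an adjusted p under 0.05 (0% of all probes). Their lowest adjusted limma p was 0.942. With 1 residual degree of freedom, the test leans on a spread estimated over all probes (prior SD 0.68). It therefore does not measure the spread of each gene between the arrays, and genes with nearly equal ratios on both arrays also failed it. An unadjusted limma p under 0.05 was reached by 10 ribosomal protein probes (3.27% of all probes): 8 with higher HIP signal (1.74%) and 2 with lower HIP signal (1.52%). Among the 8 were those of Rps9, Rplp2, Rpl18, Rpl39, Rpl11 and Rps27a, and the 2 were those of Rps19 and Rpl23. An exact sign-flip test of 2 ratios cannot give a two-sided p below 0.5.

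**Figure D1:**
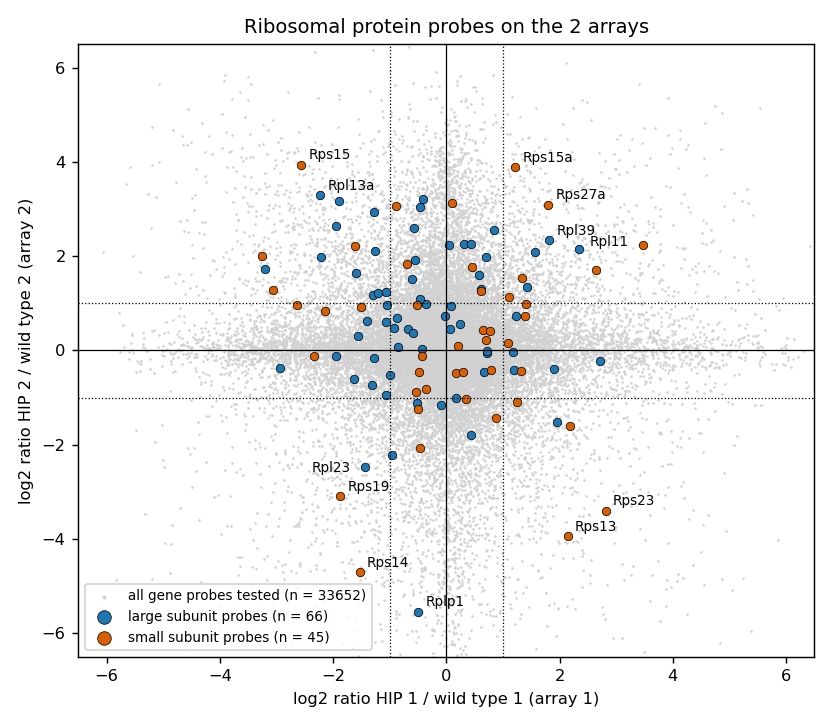
Log2 ratio of HIP over wild type on array 1 (horizontal) and array 2 (vertical), 1 point per probe: 66 large subunit probes in blue, 45 small subunit probes in orange, and all 33652 gene probes tested in grey (24 lie outside the axes). Dotted lines mark 2-fold; 10 ribosomal protein probes lie beyond them at the upper right, 3 at the lower left, 15 at the upper left and 5 at the lower right.

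The plot of both arrays' ratios shows that the ribosomal protein probes did not share 1 direction. On array 1 their median log2 ratio was -0.40, and on array 2 it was 0.63, where the median of all gene probes was 0.03 and 0.02. Against 6151 other probes of similar brightness the difference of the medians was -0.41 on array 1 and 0.58 on array 2. The mean over both arrays had a median of 0.22. On array 1 the side depends on the reference: with median centring in place of loess the ribosomal protein median differed from that of all probes by 0.16, and from that of probes of similar brightness by -0.31. At least 2-fold on array 1, 24 ribosomal protein probes were higher in HIP (13.8% of all probes) and 32 lower (16.6%). On array 2, 43 were higher by that measure (15.1%) and 18 lower (12.9%). Array 2 is the array with the dimmer wild type 2 extract, whose part in these array 2 values was not tested.

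Of the 111 probes, 52 had 1 sign on both arrays, against 49.8% of all probes. Ratios were positive on both arrays for 31 (26.9% of all probes) and negative on both for 21 (22.9%). A further 39 were lower in HIP on array 1 and higher on array 2 (25% of all probes), and 20 were the reverse (25.2%). At least 2-fold on both arrays, 10 probes were higher in HIP (2.57% of all probes), 3 were lower (2.44%), and 20 lay in opposite directions (5.43%). With median centring 26 were higher, and with the scanner's processed signals 5 were lower. Of the 20 in opposite directions, 15 were lower on array 1 and higher on array 2 (3.24%), and 5 the other way (2.19%). Bright probes fell into these 2-fold classes more often than all probes did. Among the 6151 other probes of similar brightness, 324 were higher on both arrays, 272 lower and 585 opposite. For the 111 ribosomal protein probes the shares were 9.01% higher, 2.7% lower and 18% opposite. At least 2-fold in either direction were 50.45% of the ribosomal protein probes on array 1 and 54.96% on array 2. For the probes of similar brightness these shares were 37.7% and 44.8%. Over the 111 probes the Pearson correlation between the arrays was -0.09, a description only, since the probes share the extracts.

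Levels of 25 ribosomal protein probes were higher in both HIP extracts than in both wild-type extracts (15.8% of all probes), and those of 13 were lower (15.1%). Differences within a genotype were about as large as those between genotypes, but the pairs compared are not alike. Pairs of different genotype share an array and differ in dye, while pairs of 1 genotype share a dye and lie on different arrays. The parts of genotype, dye and array in these differences therefore cannot be told apart. The median absolute log2 difference over the ribosomal protein probes was 1.05 between wild type 1 and HIP 1 and 1.13 between wild type 2 and HIP 2. It was 1.11 between the wild-type extracts and 0.82 between the HIP extracts.

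**Figure D2:**
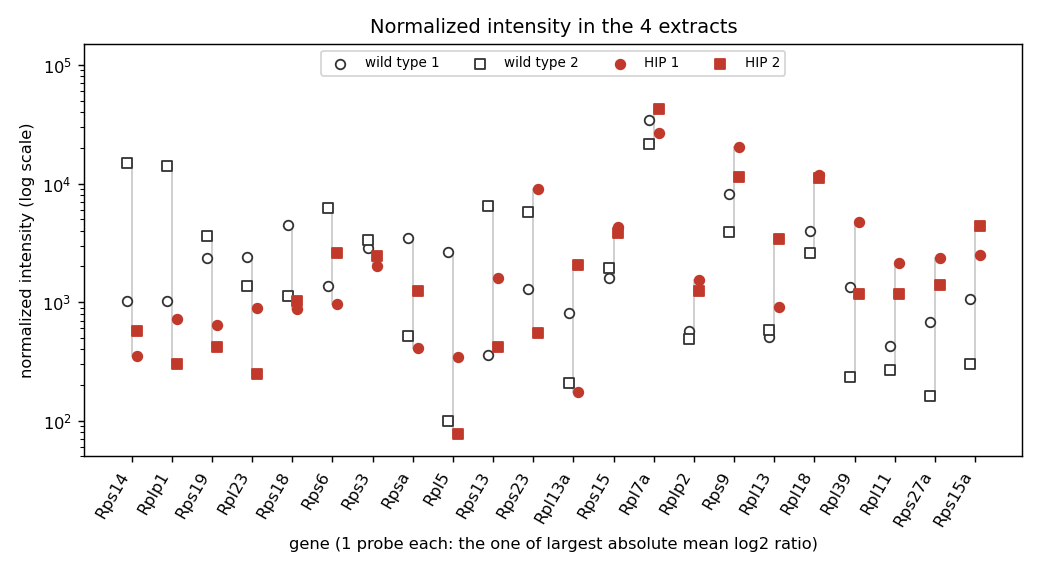
Normalized intensity (vertical, log scale) of 22 ribosomal protein genes in wild type 1 and 2 (open) and HIP 1 and 2 (filled), 1 probe per gene, with circles for array 1, squares for array 2 and a line spanning the 4 extracts. Rps14 and Rplp1 have a wild type 2 value of 14948 and 13950, far above their other 3 extracts, while Rplp2, Rps9 and Rpl11 have both HIP extracts above both wild-type extracts.

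Among the probes with lower HIP signal, Rps14, a protein of the small subunit, had the lowest mean ratio. Its intensity was 1017 in wild type 1, 353 in HIP 1, 14948 in wild type 2 and 571 in HIP 2. Both HIP extracts were below both wild-type extracts, but wild type 2 was also far above wild type 1. The log2 ratios were -1.53 and -4.71, with a mean of -3.12 ± 2.25 (SD, n = 2 arrays; limma adjusted p = 0.942).

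Rps19, the small subunit protein mutated in many patients with Diamond-Blackfan anaemia, read 2366 in wild type 1, 643 in HIP 1, 3597 in wild type 2 and 420 in HIP 2. The genotypes did not overlap, and the extracts within a genotype lay closer together than the genotypes did. Its ratios were -1.88 and -3.10, with a mean of -2.49 ± 0.86 (limma adjusted p = 0.942). Rpl23, a large subunit protein that also binds Mdm2, read 2399, 889, 1371 and 247 in the same order. Its 2 HIP values were again below both wild-type values, with a mean ratio of -1.95 ± 0.74 (limma adjusted p = 0.942).

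The other lowest mean ratios were those of 1 Rpl5 probe, Rps18, Rps29 and 1 Rpl15 probe. The Rpl5 probe read 2668, 346, 99.7 and 77.1, so that both extracts of array 2 were dim on it. Of the other Rpl5 probes, 1 read 882 in wild type 2 and 2926 in HIP 2, and 1 read 76.8 and 81.1. Rps18 read 4452, 876, 1127 and 1030, and only wild type 1 stood apart. Rps29 read 222, 161, 4403 and 1053, with both extracts of array 2 above both of array 1. The Rpl15 probe read 212, 108, 396 and 84.8, without overlap of the genotypes, at low signal, with ratios of -0.97 and -2.23.

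The acidic stalk of the large subunit, which recruits elongation factors, is built from P proteins, and its 2 measured genes differed in direction. Rplp2 read 570 in wild type 1, 1536 in HIP 1, 492 in wild type 2 and 1244 in HIP 2. Both HIP extracts were above both wild-type extracts, and the ratios of 1.43 and 1.34 gave a mean of 1.38 ± 0.07 (limma adjusted p = 0.942). Rplp1 read 1016, 721, 13950 and 299, with a single high extract, wild type 2. Its ratios were -0.49 and -5.54, with a mean of -3.02 ± 3.57 (SD, n = 2 arrays; limma adjusted p = 0.942).

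Rplp1 was printed at 10 spots on each array, so this difference between arrays was larger than the spread between spots. The SD over its spots was 0.10 on array 1 and 0.06 on array 2, and every spot on array 2 lay between -5.62 and -5.44. Spots share the labelled extract and measure the reading of the array, not the extract.

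Rpl5 and Rpl11 bind 5S ribosomal RNA in the particle that, when free, holds back Mdm2 and so stabilises p53. Rpl11 read 424 in wild type 1, 2140 in HIP 1, 266 in wild type 2 and 1172 in HIP 2. Both HIP extracts were above both wild-type extracts, and the ratios of 2.34 and 2.14 gave a mean of 2.24 ± 0.14 (limma unadjusted p = 0.0136, adjusted p = 0.942). Among the ribosomal protein probes this was the smallest unadjusted p. The 3 Rpl5 probes had mean ratios of -1.66, -0.74 and -0.39, all lower in HIP on array 1 (-2.95, -3.20 and -0.86) and with ratios of -0.37, 1.73 and 0.08 on array 2. The partners of the 5S particle therefore had mean ratios on opposite sides of 0, and the difference between them was not tested.

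Rps27a is made as a fusion with ubiquitin, which is cut off to leave the small subunit protein. It read 675 in wild type 1, 2343 in HIP 1, 162 in wild type 2 and 1384 in HIP 2. The HIP extracts were above the wild-type extracts, with a mean ratio of 2.44 ± 0.92 (limma adjusted p = 0.942).

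Other probes with higher HIP signal on both arrays belonged to both subunits. Rpl39, a short large subunit protein at the exit tunnel, read 1338, 4700, 232 and 1174 across wild type 1, HIP 1, wild type 2, HIP 2. Its ratios of 1.81 and 2.34 were close, but HIP 2 lay just below wild type 1, so the levels overlapped (mean 2.08 ± 0.37, limma adjusted p = 0.942). One Rpl18 probe read 3952, 11731, 2613 and 11174 in that order. Its HIP extracts were close together and above both wild-type extracts (mean 1.83 ± 0.37). The other Rpl18 probe had smaller ratios of 0.08 and 0.94 (mean 0.51). Rps9, a small subunit protein that binds 18S ribosomal RNA, read 8100, 20501, 3903 and 11334. It was the brightest of the probes more than 2-fold higher in HIP on both arrays (mean 1.44 ± 0.14). Rps16 had ratios of 1.11 and 1.13 at low signal, between 119 and 321. One Rpl13 probe had a mean ratio of 1.70 ± 1.22, and the other of 0.26.

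Several members known for a particular role had smaller ratios or ratios of mixed sign. Rps6, the small subunit protein phosphorylated by the S6 kinases, read 1362, 959, 6170 and 2606, with both extracts of array 2 above wild type 1 (mean -0.88 ± 0.52, limma adjusted p = 0.942). Rps3, which lies near the mRNA entry site, read 2839, 2029, 3342 and 2427 (mean -0.47 ± 0.02). Its ratios on the 2 arrays were nearly equal, yet relative to all probes its sign turned with median centring, from -0.50 to 0.04. Rps4x had a mean ratio of 0.19 ± 0.85, Rps27 of 0.45 ± 1.24 and Rpl22 of -0.63 ± 0.75. Rpl3, the large subunit protein close to the peptidyl transferase centre, was dim in all 4 extracts, between 69.9 and 156 (mean 0.35 ± 0.52, with its sign relative to all probes turned by median centring). Rpl3l, a paralog of Rpl3 best known from striated muscle, was brighter on its own probe, between 3557 and 8132, but levels of different probes are not comparable (mean 0.39 ± 1.13).

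The largest opposite ratios were those of Rps13, Rps23, Rps15 and Rpl13a. The Rps15 probe among them has a description on the array that does not name a ribosomal protein, so its value goes with the gene name only. It read 1309 in wild type 1, 222 in HIP 1, 274 in wild type 2 and 4216 in HIP 2. Its log2 ratio was -2.56 on array 1 and 3.94 on array 2. Rpl13a, a large subunit protein that is also released to silence inflammatory mRNAs after interferon-gamma, read 815, 174, 210 and 2056 (ratios -2.23 and 3.29). In these 2 genes wild type 1 and HIP 2 were high, as in Rpl35a.

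Rps13 and Rps23 showed the reverse arrangement. Rps13 read 361 in wild type 1, 1596 in HIP 1, 6428 in wild type 2 and 418 in HIP 2 (ratios 2.15 and -3.94). Rps23, a small subunit protein of the decoding centre, read 1280, 8976, 5782 and 547 (ratios 2.81 and -3.40). HIP 1 and wild type 2 were the high extracts in both. For Rps23 the sign of the mean, -0.30 ± 4.39, turned relative to all probes with median centring.

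**Figure D3:**
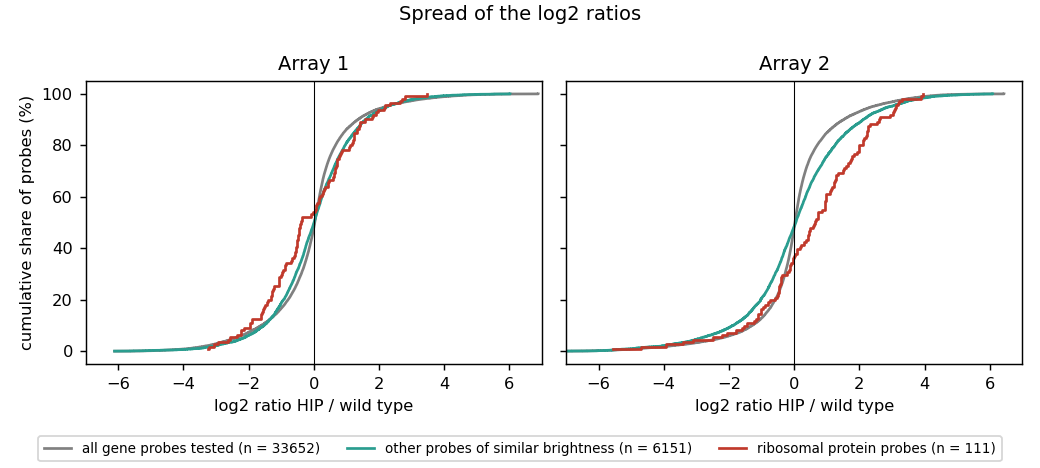
Cumulative share of probes (vertical, percent) by log2 ratio of HIP over wild type (horizontal) on array 1 (left) and array 2 (right), for the 111 ribosomal protein probes, 6151 other probes of similar brightness and all 33652 gene probes tested. The ribosomal protein curve rises less steeply than that of all probes on both arrays, with an interquartile range of 1.88 and 2.20 against 1.04 and 0.89.

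By interquartile range, ratios of ribosomal protein probes were more widely spread than those of all gene probes, but by SD they differed little on array 1. Their interquartile range was 1.88 on array 1 and 2.20 on array 2, against 1.04 and 0.89 for all gene probes. Bright probes as a class were also wide: 6151 other probes with mean signal between the quartiles of the ribosomal protein probes had interquartile ranges of 1.47 and 1.73. The SDs on arrays 1 and 2 were 1.41 and 1.74 for the ribosomal protein probes and 1.35 and 1.39 for all gene probes. For the 6151 probes of similar brightness they were 1.35 and 1.70, close to those of the ribosomal protein probes. Mitochondrial ribosomal protein genes, which encode the separate ribosome of mitochondria, had medians of 0.11 and -0.00 and interquartile ranges of 1.17 and 0.96 (63 probes), at lower signal.

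The subunits lay on different sides of 0 on array 1. Small subunit probes (45 probes, 31 genes) had a median log2 ratio of 0.29 on array 1 and 0.42 on array 2. Large subunit probes (66 probes, 44 genes) had medians of -0.51 and 0.70. Relative to probes of similar brightness the array 1 medians were 0.28 and -0.51, and with median centring 0.33 and -0.50. Relative to all probes, median centring gave 0.80 for the small and -0.03 for the large subunit, and its medians before that subtraction, 0.95 and 0.13, were both above 0. Of the 10 probes at least 2-fold higher on both arrays 6 were of the small subunit, as were 2 of the 3 lower ones. The difference between the subunits was not tested.

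**Figure D4:**
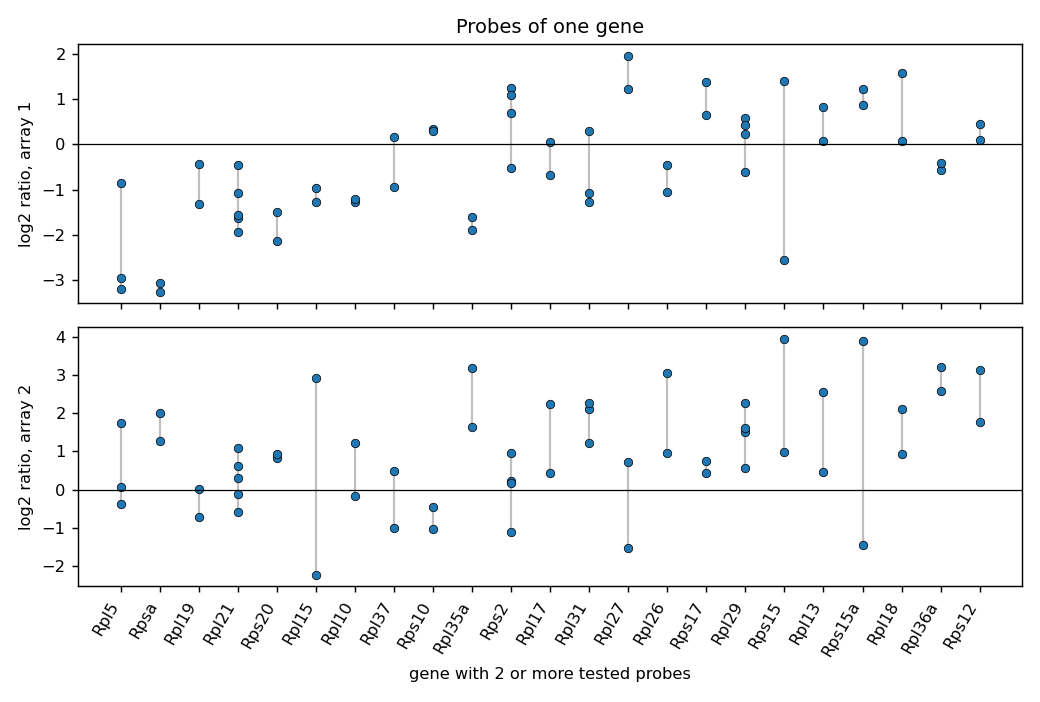
Log2 ratio of HIP over wild type (vertical) for every tested probe of 23 genes with 2 or more tested probes, on array 1 (top) and array 2 (bottom), with a line spanning the probes of a gene. Genes are ordered by their mean ratio, and the probes of Rpl15 and Rps15a lie far apart on array 2.

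Different probes for 1 gene gave a check on values read from a single probe. For 24 genes 2 or more probes were tested (60 probes), and in 10 of them all probes had 1 sign on each array. Probes of the same gene differed by a median of 0.73 on array 1 and 1.04 on array 2. Probes of different ribosomal protein genes differed by 1.38 and 1.58. For 7 pairs placed under 60 bases apart the differences were 0.56 and 0.62, and 6 of the 7 pairs had the same signs.

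Some opposite patterns recurred on a second probe of the gene. Rpsa, the small subunit protein also known as the laminin receptor precursor, had ratios of -3.07 and -3.25 on array 1 for its 2 probes, and of 1.28 and 2.00 on array 2. The first probe read 3470 in wild type 1, 413 in HIP 1, 516 in wild type 2 and 1250 in HIP 2, and the second 1762, 185, 155 and 619. On both probes wild type 1 was the highest extract. The Rpl35a probes had ratios of -1.60 and -1.89 on array 1 and of 1.65 and 3.17 on array 2. The Rpl36a probes, placed only 6 bases apart, had ratios of -0.57 and -0.40 on array 1 and of 2.59 and 3.20 on array 2. The second of them was dim on array 1, with 94.5 in wild type 1 and 71.4 in HIP 1. Its HIP 1 signal was not well above background. Both Rps12 probes also had the larger ratio on array 2 (1.77 and 3.12).

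Other genes had probes that differed. The Rps15a probe named above read 1072, 2496, 299 and 4417, without overlap of the genotypes (ratios 1.22 and 3.89), whereas the other had ratios of 0.87 and -1.44. The 2 Rpl15 probes had ratios of -2.23 and 2.93 on array 2. The second Rps15 probe had ratios of 1.41 and 0.98, where the first had -2.56 and 3.94. For Rps15a and Rpl15 the sign of the mean ratio depended on the probe, and for Rps15 only the sign on array 1 did.

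Genes with 3 or more probes showed both situations. All 5 Rpl21 probes were lower in HIP on array 1 (-1.95 to -0.46), and their array 2 ratios ran from -0.60 to 1.09. All 4 Rpl29 probes were higher in HIP on array 2 (0.57 to 2.26), with array 1 ratios from -0.60 to 0.58. The 3 Rpl31 probes were likewise higher on array 2 (1.23 to 2.27), with array 1 ratios from -1.27 to 0.31. The 4 Rps2 probes had mean ratios from 0.07 to 0.63.

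Many ribosomal protein genes have near-identical copies in the genome, most of them processed pseudogenes, and probes can read more than 1. Of the 111 probes, 66 list several RefSeq transcripts. The array also carries 356 entries described as similar to a cytosolic ribosomal protein, 347 of them tested, with medians of -0.15 and 0.30 on the 2 arrays. Of 324 entries whose parent gene was measured (58 genes), 211 had the sign of the parent on array 1 and 214 on array 2. The medians of the ribosomal protein probes, -0.40 and 0.63, had the same signs as those of the 347 entries. How often unrelated probes would agree in sign was not computed. The correlation with the parent was 0.31 and 0.42, a description across entries that may share sequence and therefore signal.

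Copies were most numerous for Rpl29, whose 38 entries had medians of 0.33 and 0.58, next to 0.16 and 1.48 for the Rpl29 probes. The 29 Rpl7a copies had medians of -0.30 and 0.94, next to -0.36 and 0.98 for Rpl7a itself. The 17 Rpl19 copies had medians of -0.48 and 0.60, where Rpl19 averaged -0.87 and -0.35, so that array 2 differed in sign. The 17 Rps2 copies had medians of 0.06 and -0.39, where Rps2 averaged 0.63 and 0.06. The 16 Rpl21 copies had medians of -1.44 and 0.09, where Rpl21 averaged -1.33 and 0.26. The 12 Rpl23a copies had medians of 0.24 and -1.33, next to 0.43 and -1.79 for Rpl23a. The single Rpl11 copy had ratios of 0.54 and -0.92, unlike 2.34 and 2.14 for Rpl11. As a probe can read several copies, values of genes with copies are uncertain as to source.

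The other translation genes measured showed no call either. In limma's test none passed among 9 translation factor genes with terminal oligopyrimidine mRNAs, 16 initiation factors, 22 ribosome biogenesis genes, 20 genes of the mTOR and S6 kinase pathway, and 5 ubiquitin fusion or ribosome-associated genes. The 9 translation factors, of 14 listed, had medians of -0.56 on array 1 and 0.61 on array 2. The ribosomal protein probes had medians of -0.40 and 0.63. The 9 did not share a pattern: 2 were higher and 3 lower in HIP on both arrays, and 4 differed in sign. Medians of the initiation factors were 0.16 and 0.24, of the biogenesis genes 0.13 and 0.13, and of the mTOR pathway 0.01 and -0.02.

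Among these, Eef1a1, which delivers aminoacyl-tRNA to the ribosome, had ratios of -2.10 and -1.09, and Eif4b, which aids the helicase of initiation, of -2.99 and -0.90. Btf3, a part of the complex that binds nascent chains, had ratios of 1.48 and 3.76. Gnb2l1, the scaffold RACK1 of the small subunit, had nearly equal ratios of -0.93 and -1.02 (mean -0.98 ± 0.07, limma adjusted p = 0.942). Rps6kb1, the kinase that phosphorylates Rps6, had ratios of 0.92 and 1.33, while Rps6 itself had -0.51 and -1.24. Npm1, the nucleolar protein nucleophosmin, had ratios of 1.70 and -2.95, with HIP 1 (7158) and wild type 2 (6048) high and wild type 1 (2209) and HIP 2 (784) low, the same order of extracts as in Rps23.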

How the data were processed

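Scanner output of 2 two-colour Agilent arrays (design 014879) was used. Per the file headers, the authors read the spots with version 9.5.1.1 of Agilent's Feature Extraction software. Spot and background intensities are deposited as scanned. The processed signal intensity, per the file headers, was background-subtracted and dye-normalized by the software. The deposited p-value of a spot was computed by that program's error model, per the file headers, and made no call here. The deposited series table holds log10 ratios. Of the 111 tested ribosomal protein probes, 78 have an entry in it and 54 equal the scanner ratio on both arrays.

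Intensities were corrected with normexp (offset 50) and loess (control spots at weight 0) in limma 3.58.1 (R 4.3.3). Spots marked as outliers were left out (4 ribosomal protein spots), and spots of a probe were averaged. Probes well above background in at least 1 dye on both arrays were tested, as log2 ratios of the deposited intensities, with lmFit and eBayes (1 residual degree of freedom). Levels are intensities after between-array quantile normalization of mean signals, which leaves the ratios as they are. On the log2 scale 1 unit is 2-fold. Simulated data were used to test the fit. The number of arrays limits the precision. No source used here names the genome build of the probe positions.

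Genes, lists and tests were chosen with earlier results of these data known. Named genes were the 8 highest and 8 lowest mean ratios among probes well above background throughout, the 6 brightest, up to 4 examples of each 2-fold class, genes with 3 or more probes and a set chosen for role. Rps16, Rps9 and genes named for agreement of their probes were chosen after their values were seen. Of the 5 translation lists, the 2 of largest mean ratio with 1 sign and the brightest were eligible. Other normalizations, filters, thresholds, single arrays and 4 separate channels were tried. Some genes are counted among the probes but are not reported here by name.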

Additional observations from a re-analysis of the deposited data

How the results depend on the processing

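The precision is limited by 2 arrays without a dye swap. Limma called 0 of 33652 probes, with 1099 at an unadjusted p under 0.05, and called 0 under every other normalization, filter and design tried (976 to 5590 at an unadjusted p under 0.05). The median log2 ratio of the ribosomal protein probes ran from -0.40 without replicate 2 to 0.63 without replicate 1, so its direction was reversed by leaving out array 2; their SD ran from 1.41 to 1.74. With the scanner's processed signals 5 probes were at least 2-fold lower in HIP on both arrays, and the SD was 1.81. With median centring 26 were at least 2-fold higher, and 21 of the 111 turned sign relative to all probes, whose own median of means moved from 0.02 to 0.27. Without normalization, where dyes are not balanced, 85 probes had 1 sign, 43 were at least 2-fold higher, 0 lower and 8 opposite, the median was 1.64, and 18 genes had probes of 1 sign. With 1 probe per gene 33 had 1 sign and 6 were 2-fold higher, since fewer probes were counted. At a 1.5-fold threshold the counts higher, lower and opposite were 17, 7 and 31, and at 4-fold 2, 0 and 4. With only probes whose description names a ribosomal protein (105 of 111), an alternative chosen after seeing the data, 9 were higher, 3 lower and 19 opposite. Of 208 values of named probes under these settings, 133 moved by less than the spread between the arrays and 75 by more. Counts over both arrays have no value with 1 array left out, and neither has limma's test. The main test is paired by array, since each ratio sets 1 HIP extract against the wild-type extract on its array, and no further replicate block could be added; with the 4 channels as separate samples limma called 0 probes.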
